A study of Mus musculus with 13 samples.

Results

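The microglia described here are a small group of 89 cells from the spinal cord of healthy mice. They are the cells that the deposited annotation calls microglia and that the authors' clustering placed in cluster 10, and they are 89 of 17670 annotated microglia and of 22148 cells in all. They were proposed under the name of the chemokine genes Ccl3 and Ccl4, with the markers S1pr1, Nes, Cadm1, Ccl3, Cd83 and Il4i1. They are called cluster 10 microglia below, because most of them carried few or no UMIs of either chemokine and another control cluster carried more. A UMI is a molecular tag that marks 1 captured RNA molecule, and CPM gives a gene's UMIs per 1000000 UMIs of the cells summed.

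The study sequenced RNA of single myeloid cells, sorted as resident or infiltrating, from mice of the Cx3cr1YFPCreERT2:R26tdTomato genotype, with experimental autoimmune encephalomyelitis (EAE, in which an immune attack on myelin inflames the cord) and from controls. In this line a Cre recombinase that tamoxifen activates is made from the Cx3cr1 locus and switches on the red protein tdTomato, a mark that long-lived microglia keep and short-lived monocytes lose. All groups carry both alleles. The groups are peak EAE resident (2 libraries), chronic EAE resident (3), peak EAE infiltrating (2), chronic EAE infiltrating (3) and control resident (3), and letters (a, b, c) only name the libraries within each. The labels call the libraries biological replicates. The age of the mice, the way EAE was induced and the number of mice behind a library were not stated there, so p-values measure the spread between these libraries.

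Microglia are the resident macrophages of the brain and spinal cord. In the healthy cord they express a homeostatic set of genes that includes the purine receptor P2ry12 and the surface protein Tmem119, and in degeneration, demyelination and development some of them lower these genes and express lipid-handling, lysosomal and adhesion genes, a state called disease-associated. CCL3 and CCL4 are secreted chemokines that attract leukocytes. S1PR1 is a receptor for sphingosine 1-phosphate, CADM1 is an adhesion molecule of the immunoglobulin family, nestin (Nes) is an intermediate filament protein, CD83 is a surface protein of activated antigen-presenting cells, and IL4I1 is a secreted enzyme that oxidises amino acids.

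All 89 cells came from the control resident libraries. They were 33 of 1769 microglia in control library a (1.87%, 95% exact binomial interval 1.29 to 2.61), 10 of 1149 in control b (0.870%, 0.418 to 1.59) and 46 of 3237 in control c (1.42%, 1.04 to 1.89), so control c held 51.7% of them. Their mean share was 1.39% ± 0.499 (SD, n = 3). The EAE libraries held 0 of them in 11515 annotated microglia, which allows a share of up to 0.0261%. Peak resident libraries held 0 of 1190 (up to 0.252%) and chronic resident libraries 0 of 8305 (up to 0.0361%). These limits cover counting error only.

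Cluster 9, the main cluster of the healthy cord, was nearly as bound to the controls, with 92.2% of control microglia and 32 cells in all EAE libraries together. Control libraries held 1.57 cluster 10 cells per 100 cluster 9 cells, and at that ratio the 32 cells would go with 0.502 cluster 10 cells. The clusters were made from the same counts that differ between the groups, so their sizes are given with no test. No cell marked as a doublet was in the deposited table (0 of 22148), 52 barcodes were found in more than 1 library, and 1 cluster 10 cell carried such a barcode.

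The 3 control libraries carried 3 different codes in the SLX column of the deposited cell table. That code is called the pool below, and what it stands for was not stated there. Among the resident libraries, peak a and b shared a pool with control b, and chronic c shared one with control c. Control a was alone in its pool, and chronic a and b shared one with no control. A fit with the pool as a term thus compares the peak with control b alone, and chronic c with control c alone. The CPM ratios between clusters of the control libraries below were taken within a library. Over the 13 libraries, total UMIs ran from 4111257 to 22450385 and median UMIs per cell from 2558 to 11146. Cluster 10 cells summed to 164974, 53297 and 196996 UMIs in control a, b and c, so that 1 UMI was worth 6.06, 18.8 and 5.08 CPM. They held more UMIs than cluster 9 cells in each library, with medians of 4783, 5060 and 3842 against 3616, 4448 and 2990, and more genes, with medians of 2037, 2262 and 1790 against 1737, 2122 and 1523. Their median mitochondrial percent was 1.48, 2.86 and 1.32 in cluster 10 and 1.06, 1.44 and 1.07 in cluster 9. The difference of 0.694 percentage points had a two-sided exact permutation p of 0.25, the smallest that 3 libraries allow. The part that depth and mitochondrial content play in the differences by gene was not tested, beyond the thinned shares given further on.

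Cluster 10 and cluster 9 were compared to show which genes set these cells apart from the common microglia of the same cords. Which genes the authors clustered on is not stated in the sources used here. Any gene may have helped to place the cells, so the values are a description with no test. A gene was counted as higher or lower when its mean log2 ratio, with 20 CPM added to both values, was at least 1 in size and had the same sign in all 3 control libraries, among genes with a mean of at least 50 CPM over both clusters. Of 3515 such genes, 82 were higher (2.33%) and 54 were lower (1.54%) in cluster 10, 3.87% together, and the median log2 ratio of all of them was -0.04. The 3 genes nearest to the threshold inside it were Ptgs1 at -1.0003, Tnfaip8l2 at -1.005 and Fxyd5 at 1.006, and the 3 outside it were Csmd3 at -0.997, Siglech at -0.99 and Il16 at -0.98. Of the 82 genes, 38 were under 50 CPM in cluster 9 and passed the filter through cluster 10, and of the 54 genes 30 were under it in cluster 10, so for these the filter and the direction are tied. Log2 ratios below are means ± SD over the 3 libraries. For single genes said not to overlap below, 3 libraries stand on each side, and the share of such genes over all genes is not given.

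The chemokine genes stood first. Ccl4 was at 1443, 1989 and 1086 CPM in cluster 10 and at 10.2, 12.6 and 23.7 CPM in cluster 9 of control a, b and c, a log2 ratio of 5.40 ± 0.66, and 558 UMIs were counted where the cluster 9 level would give 7.03. Ccl3 was at 382, 1557 and 447 CPM in cluster 10 and at 11.9, 28.5 and 17.3 CPM in cluster 9, a log2 ratio of 4.11 ± 0.79. For both genes the lowest cluster 10 library lay above the highest cluster 9 library. Of the 16 chemokine and receptor genes listed, 7 passed the filter, 4 were higher and 0 were lower, with a median log2 ratio of 1.202. Over all genes 2.33% were higher and 1.54% lower, with a median of -0.04. Of the 4, Ccl4 and Ccl3 were under 50 CPM in cluster 9 and passed the filter through cluster 10, so the count supports nothing further. The other members that were higher were Cxcl16, a membrane-bound chemokine, at 1.38 ± 0.54, and Ccl9 at 1.202 ± 0.28. Ccl4 and Ccl3 neighbour each other on chromosome 11 (GRCm38, chr11:83662584-83664683 on the plus strand and chr11:83647844-83649355 on the minus strand).

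**Figure D1:**
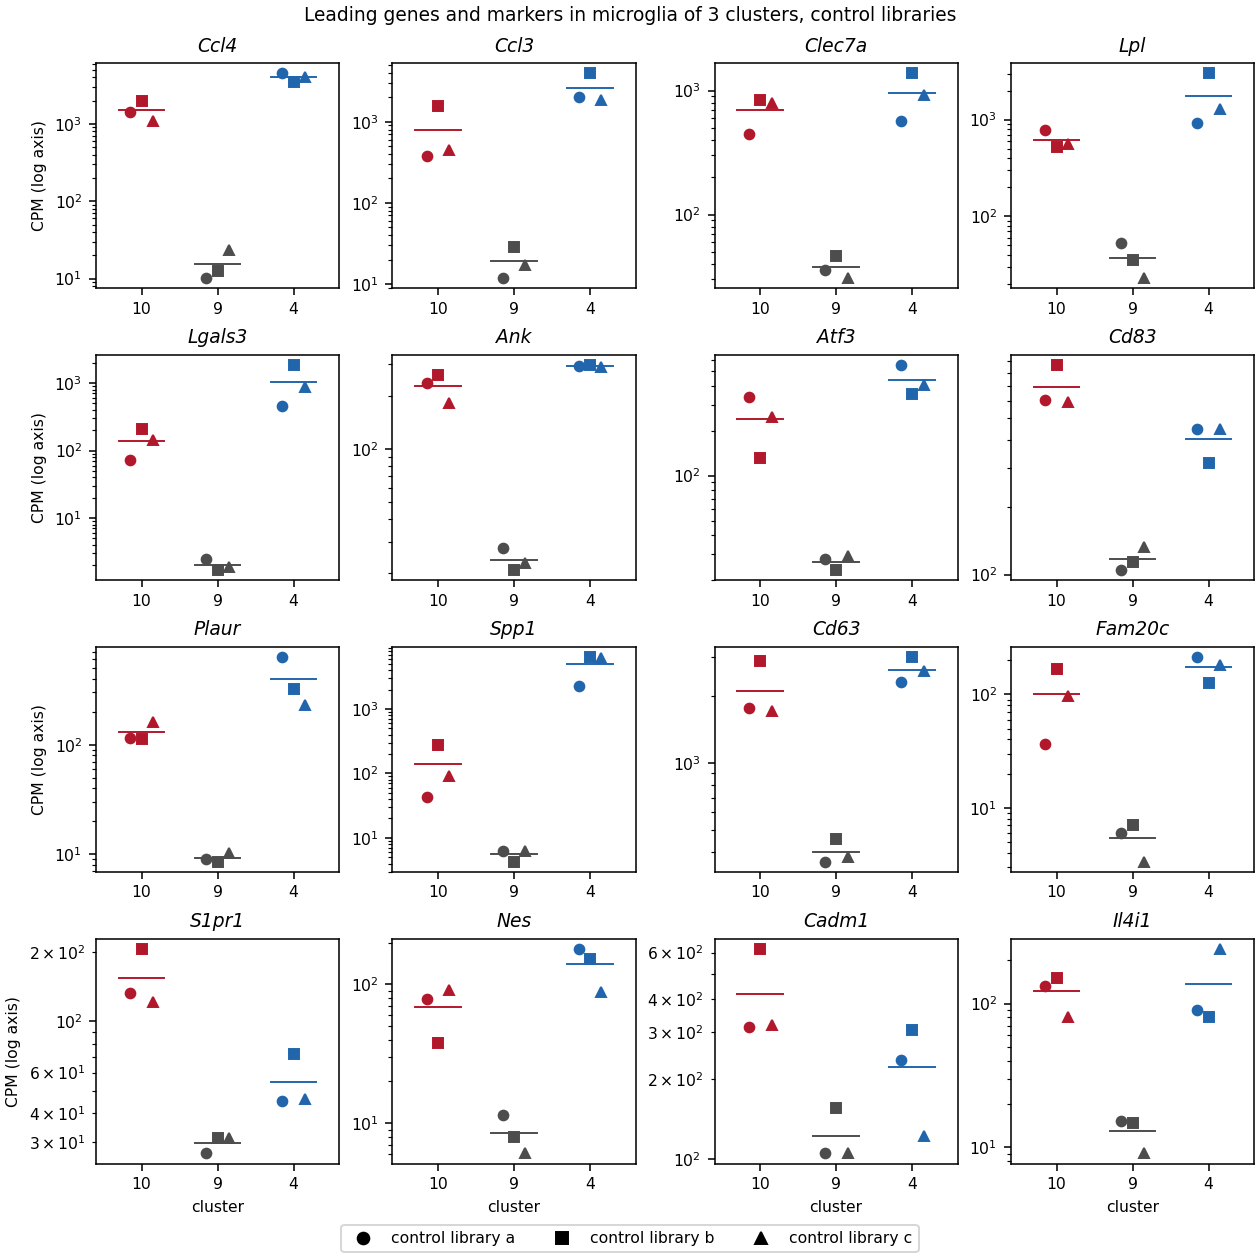
CPM (log axis) of 16 genes in the summed cells of cluster 10, cluster 9 and cluster 4 in each control library; symbols mark the libraries and lines the means. Every gene was higher in cluster 10 than in cluster 9 in all 3 libraries, while Ccl4, Ccl3, Lgals3 and Spp1 were higher still in cluster 4 and S1pr1 was not.

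The bases before the start sites of 2 of these genes are printed because both genes were higher in these cells, Ccl3 as a namesake chemokine and Plaur, the receptor of the urokinase-type plasminogen activator, as a member of the NF-kB list. They are the 250 bases upstream of the RefSeq start site in build GRCm38.p6, 5′ to 3′ on the strand of the gene, for Ccl3 chr11:83649379-83649628 on the minus strand and for Plaur chr7:24462233-24462482 on the plus strand. Capitals mark matches on either strand to an NF-kB pattern (GGG, any 5 bases, CC), TGANTCA (AP-1), TGACGTCA (CRE) and TTNNGCAA (C/EBP).
Ccl3: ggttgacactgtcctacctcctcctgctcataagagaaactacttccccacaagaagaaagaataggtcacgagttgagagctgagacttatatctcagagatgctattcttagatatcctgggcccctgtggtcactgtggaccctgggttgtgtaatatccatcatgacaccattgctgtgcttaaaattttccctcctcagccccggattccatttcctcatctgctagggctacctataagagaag
Plaur: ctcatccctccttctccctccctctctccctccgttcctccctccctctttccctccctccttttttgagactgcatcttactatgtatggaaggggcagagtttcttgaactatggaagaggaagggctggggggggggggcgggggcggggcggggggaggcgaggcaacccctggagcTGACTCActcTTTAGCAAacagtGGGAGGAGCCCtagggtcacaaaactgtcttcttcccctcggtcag
The Ccl3 window holds none of the 4 patterns. The Plaur window holds the AP-1 pattern at bases -69 to -63, the C/EBP pattern at -59 to -52 and the NF-kB pattern on both strands at -46 to -36, where the 2 matches overlap, counted from the start site. Over all 32851 RefSeq windows of this length, 45.8% hold the NF-kB pattern, 6.75% the AP-1, 9.56% the C/EBP and 1.55% the CRE pattern, so the NF-kB match is common. A match is a run of letters and not a shown binding site. RefSeq windows were found for 11 of 16 leading genes and markers. Of these, Nes, Il4i1, Lgals3, Ank, Atf3 and Fam20c also held the NF-kB pattern and Spp1 the C/EBP pattern, while only Plaur held the AP-1 pattern.

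The chemokine signal came from few cells. Ccl4 had a UMI in 40 of the 89 cells and Ccl3 in 31, and 17 cells had both. The 3 cells with most Ccl4 UMIs held 89.5%, 98.1% and 74.8% of the Ccl4 UMIs of cluster 10 in control a, b and c, with up to 90, 65 and 128 UMIs in a single cell, and the median cell held 0, 0.5 and 0. At least 10 Ccl4 UMIs were found in 10 cells, and the 6 cells with at least 10 Ccl3 UMIs were all among them. Without the top 3 cells of each library, Ccl4 was at 166, 52.5 and 300.2 CPM and Ccl3 at 86.4, 24.9 and 78.0 CPM. In control b the top 3 cells held 98.8% of the Ccl3 UMIs, so the 24.9 CPM left there rests on very few UMIs. Cluster 9 was at 28.5 CPM of Ccl3 there with all its cells kept, so these levels are not like for like.

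Other leading genes had a UMI in more of the cells. Clec7a, which encodes the beta-glucan receptor dectin-1, had a UMI in 61 cells, Lpl in 52, Cd83 in 66 and Cd63 in 86 of 89. The top 3 cells held 35.6%, 75.6% and 33.8% of the Clec7a UMIs in control a, b and c and 25.3%, 57.5% and 18.5% of those of Cd63, where b has only 10 cells. For Lpl they held 38.8%, 96.4% and 36.7%. In control b, where 6 of 10 cells had none, Lpl was at 26.7 CPM without them, from very few UMIs. The 35.6 CPM of cluster 9 there is with all its cells kept. Of Ccl4, Ccl3, Clec7a and Lpl, 8 cells had none, 16 had 1, 32 had 2, 28 had 3 and 5 had all 4. Among cells with at least 10 UMIs of Ccl4, Clec7a had a UMI in 0 of 4 in control a, 0 of 2 in control b and 4 of 4 in control c. Cd63 had one in 4 of 4, 2 of 2 and 3 of 4.

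**Figure D2:**
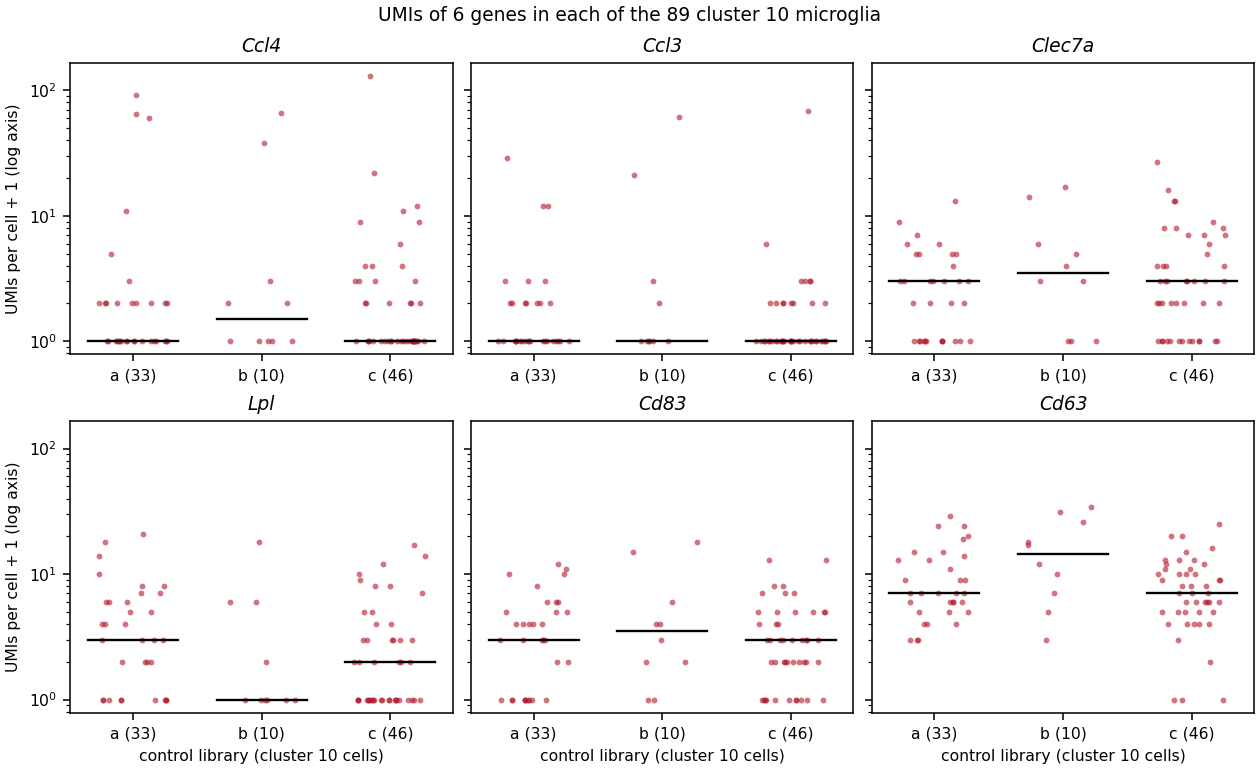
UMIs per cell plus 1 (log axis) of 6 genes in each of the 89 cluster 10 microglia, by control library, with the number of cells in brackets and the median as a line. Ccl4 and Ccl3 sit at 0 or 1 UMI in most cells and above 50 in a few, while Cd63 had a UMI in 86 cells.

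To set the clusters side by side at equal depth, each cell was thinned to 2000 UMIs, which left out 0 cells of cluster 10, 190 of 5672 of cluster 9 and 3 of 69 of cluster 4 of the control libraries. Cd63, a tetraspanin of late endosomes, was then found in 93.3% of cluster 10, 47.1% of cluster 9 and 92.4% of cluster 4 cells (96.6%, 62.4% and 92.8% before thinning). Clec7a was found in 57.3%, 5.87% and 53.0%, Ccl4 in 31.5%, 1.51% and 40.9%, and Ccl3 in 19.1%, 2.37% and 53.0% of the same clusters. Before thinning these 3 genes were found in 68.5%, 9.34% and 66.7%, in 44.9%, 2.68% and 49.3%, and in 34.8%, 3.91% and 60.9%. Cluster 9 cells of the same libraries had medians of 2990 to 4448 UMIs before thinning. The part that free RNA in the droplets plays in the Ccl4 and Ccl3 UMIs was not tested. S1pr1 was found in 22.5% of cluster 10 cells (exact 95% interval 14.3 to 32.6), 5.55% of cluster 9 cells and 6.06% of cluster 4 cells (1.68 to 14.8). By library the S1pr1 shares were 33.3%, 40.0% and 10.9% in cluster 10 and 0%, 23.1% and 2.50% in cluster 4 of control a, b and c. Without control c they were 34.9% of cluster 10 (15 of 43 cells) and 11.5% of cluster 4 (3 of 26). Cadm1 was found in 41.6% (31.2 to 52.5), 18.9% and 18.2% (9.76 to 29.6). The shares pool cells of the 3 libraries, cells are not replicates, and these intervals cover counting error only.

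**Figure D3:**
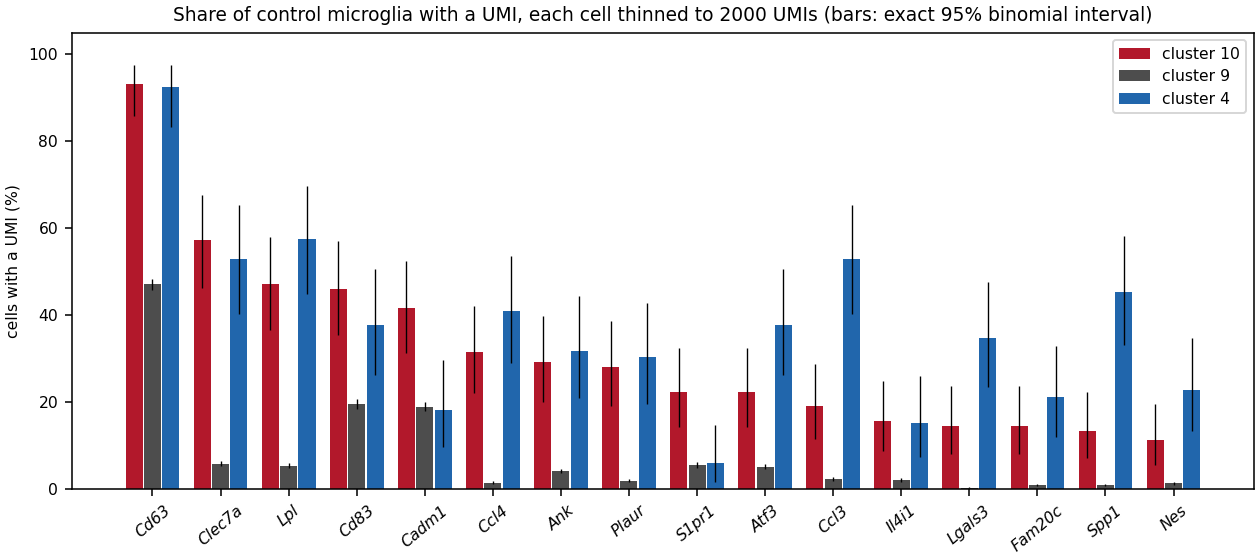
Percent of cells with at least 1 UMI of 16 genes in cluster 10, cluster 9 and cluster 4 of the control libraries, each cell thinned to 2000 UMIs, with exact 95% binomial intervals. Cluster 10 and cluster 4 were close for Cd63 and Clec7a, cluster 4 was higher for Ccl3 and Spp1, and S1pr1 and Cadm1 were found most often in cluster 10.

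The 6 markers were checked first against cluster 9. S1pr1 was at 133, 206 and 122 CPM in cluster 10 and at 26.7, 31.3 and 31.2 CPM in cluster 9, a log2 ratio of 1.78 ± 0.34. Cadm1 was at 315, 619 and 320 CPM in cluster 10 and at 105, 155 and 105 CPM in cluster 9 (1.58 ± 0.25), and Cd83 at 606, 863 and 594 CPM against 105, 114 and 133 CPM (2.35 ± 0.36). Il4i1 was at 133, 150.1 and 81.2 CPM in cluster 10 and at 15.2, 14.8 and 9.09 CPM in cluster 9 (2.07 ± 0.25). Its gene overlaps Nup62 on the same strand. Nes was at 78.8, 37.5 and 91.4 CPM in cluster 10 and at 11.4, 7.93 and 6.06 CPM in cluster 9, with 33 UMIs in all, and its log2 ratio of 1.60 ± 0.53 stood under the filter on low values. All 6 markers were thus higher in each library, and the 5 that passed the filter passed the rule of size. The markers were taken from these cells, so this is a check of the label and not support for it.

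Of the 21 members of the disease-associated list, 16 passed the filter, 10 were higher and 0 were lower in cluster 10, with a median log2 ratio of 1.48 beside -0.04 over all genes. Over all genes 2.33% were higher and 1.54% lower. Of the 10, 7 were under 50 CPM in cluster 9 and passed the filter through cluster 10, so the count and the median describe the list and support nothing further. Clec7a was at 442, 844 and 797 CPM in cluster 10 and at 35.6, 46.1 and 30.9 CPM in cluster 9 (3.59 ± 0.49). Lpl, a lipase that frees fatty acids from lipoproteins, was at 782, 525 and 553 CPM against 53.1, 35.6 and 22.98 CPM (3.50 ± 0.22). Neither gene overlapped between the clusters. The other members that were higher were Lgals3 (galectin-3, 2.77 ± 0.68), the pyrophosphate transporter gene Ank (2.49 ± 0.28), Spp1 (osteopontin, 2.32 ± 1.21, from 40 UMIs), Cd63 (2.31 ± 0.25), the macrophage growth factor gene Csf1 (2.02 ± 0.93), the lysosomal protease gene Ctsb (1.51 ± 0.13), the receptor kinase gene Axl (1.44 ± 0.31) and the tetraspanin gene Cd9 (1.30 ± 0.13). Cd9 and Ctsb were abundant, at 5121 ± 575 and 3980.5 ± 227 CPM in cluster 10 and 2073 ± 315 and 1389 ± 194 CPM in cluster 9.

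The other members ranged from 0 UMIs to ratios above 1. Cst7, at 63.8 ± 10.0 CPM in cluster 10 and 12.4 ± 3.87 CPM in cluster 9 (1.37 ± 0.12), and Itgax, at 45.6 ± 7.08 and 6.19 ± 1.74 CPM (1.32 ± 0.24), were under the filter. Ctsd, Cd68 and Ccl6 had ratios of 0.83 ± 0.10, 0.84 ± 0.08 and 0.82 ± 0.14. Apoe, the main lipid carrier of the nervous system, was at 1000.2, 675 and 553 CPM in cluster 10 and at 704, 347 and 374 CPM in cluster 9, a log2 ratio of 0.65 ± 0.23. Gpnmb, a lysosomal glycoprotein gene of lipid-laden macrophages, had 0 UMIs in the 89 cells, Igf1 had 1 and Fabp5 had 3. Trem2, the lipid-sensing receptor, was at 3377 ± 174 CPM in cluster 10 and 2968 ± 100.0 CPM in cluster 9 (0.18 ± 0.03).

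Homeostatic genes were still abundant in cluster 10, at lower levels for part of the list. All 16 members passed the filter, 0 were higher and 3 were lower, with a median log2 ratio of -0.52. Over all genes 2.33% were higher and 1.54% lower, with a median of -0.04. P2ry12 was at 1582, 1276 and 1300 CPM in cluster 10 and at 3910, 2562 and 3346 CPM in cluster 9 (-1.21 ± 0.19). Selplg, the ligand of P-selectin, was at 1782, 1388 and 1335 CPM against 4116, 3799 and 3361 CPM (-1.32 ± 0.12), and the fructose transporter gene Slc2a5 was at 90.9, 93.8 and 50.8 CPM against 276, 291 and 229 CPM (-1.56 ± 0.22). For these 3 genes the groups did not overlap. Tmem119 (-0.84 ± 0.11), Cx3cr1 (-0.53 ± 0.17) and Siglech (-0.99 ± 0.43) stayed within 2-fold. Cst3, an abundant microglial transcript, had a ratio of -0.09 ± 0.06. Of the 11 listed microglial transcription factor genes that passed, 0 were higher or lower, and Irf8 and Mef2c had log2 ratios of -0.04 ± 0.07 and 0.01 ± 0.08.

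**Figure D4:**
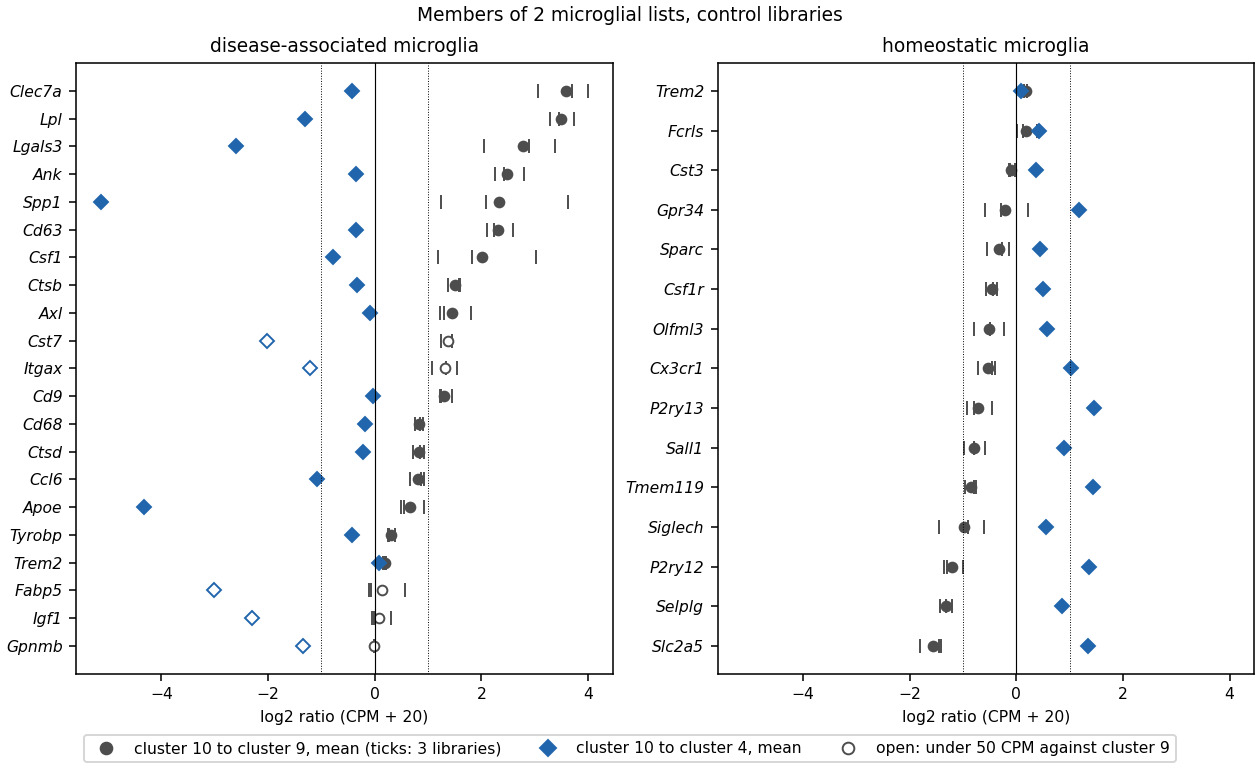
Log2 ratio, with 20 CPM added, of members of the disease-associated and homeostatic lists in cluster 10 to cluster 9 (circles, ticks for the 3 control libraries) and to cluster 4 (diamonds); open symbols are genes under 50 CPM against cluster 9, and dotted lines mark a ratio of 1 and -1. Against cluster 9, 10 disease-associated members lie beyond 1 and filled, and against cluster 4 Spp1 and Apoe lie below -4.

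Stress and transcription factor genes were uneven. The counts of this paragraph stand beside 2.33% higher and 1.54% lower over all genes, with a median of -0.04. Atf3, a stress-induced transcription factor gene, was at 339, 131 and 248.7 CPM in cluster 10 and at 27.4, 23.4 and 28.8 CPM in cluster 9 (2.40 ± 0.56). It was the only member higher among 9 immediate early genes that passed the filter, with 0 lower and a median of -0.25. Fos had 1 UMI in the 89 cells, and Jun, Junb and Jund had log2 ratios of -0.43 ± 0.43, -0.20 ± 0.23 and 0.26 ± 0.13. Of 12 genes that passed from the list of genes known to rise in microglia during dissociation, 4 were higher, Ccl4, Ccl3, Atf3 and Hsp90aa1, and 0 were lower, with a median of -0.13. The summed level of that list was 4867, 7092 and 4594 CPM in cluster 10 and 2826, 4341 and 3220 CPM in cluster 9. These sums include Ccl4, at 1443, 1989 and 1086 CPM in cluster 10, and Ccl3, at 382, 1557 and 447 CPM. In cluster 9 neither was above 28.5 CPM, so the sums in large part restate these namesake genes. The part that dissociation plays was not tested. Of 7 heat shock and chaperone genes that passed, 4 were higher, Hspa5 (1.27 ± 0.36), Hsp90ab1 (1.21 ± 0.09), Hsp90aa1 (1.18 ± 0.06) and Hspd1 (1.15 ± 0.17), while the inducible genes Hspa1a and Hspa1b, near-identical copies that share reads, had 3 and 1 UMIs.

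The NF-kB and cytokine lists moved little apart from single genes. Here too the counts stand beside 2.33% higher and 1.54% lower over all genes. Of 8 NF-kB pathway and target genes that passed, Plaur was higher (115, 113 and 162 CPM in cluster 10 against 9.08, 8.58 and 10.2 CPM in cluster 9, 2.34 ± 0.22) and 0 were lower. The inhibitor gene Nfkbia, itself a target, was at 186 ± 23.9 CPM in cluster 10 and 178 ± 13.2 CPM in cluster 9. Of 3 cytokine and growth factor genes that passed, Csf1 was higher. Tnf had 16 UMIs where 4.00 would be at the cluster 9 level, and Il1b had 5. Of 4 MHC class II genes that passed, Cd74, the invariant chain, was higher at 418, 93.8 and 274 CPM against 90.9, 39.7 and 44.2 CPM (1.70 ± 0.68). Under the filter, H2-Ab1 had 11 UMIs (20.9 ± 21.2 CPM in cluster 10), H2-Aa had 1 and H2-Eb1 had 0. Of 7 MHC class I and 2 interferon response genes that passed, 0 were higher or lower. Of 5 proliferation genes that passed, Pcna was higher (1.12 ± 0.33), while Mki67 had 0 UMIs and Top2a had 1.

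Fam20c, a kinase gene of the secretory pathway, had a log2 ratio of 2.08 ± 0.87. Among the 82 genes that were higher, several further ones were picked out after their values were seen. C3ar1 (1.74 ± 0.19) and C5ar1 (1.39 ± 0.06) encode receptors of the complement peptides C3a and C5a. Abcg1 (1.77 ± 0.27) and Abca1 (1.30 ± 0.28) encode cholesterol exporters, and Nceh1 (1.56 ± 0.34) encodes an enzyme that cleaves cholesterol esters. Tpi1 (1.55 ± 0.18), Ldha (1.37 ± 0.17), Pkm (1.23 ± 0.28), Aldoa (1.17 ± 0.27), Pgam1 (1.07 ± 0.31) and Pgk1 (1.06 ± 0.16) encode enzymes of glycolysis and lactate formation, Slc16a3 (1.05 ± 0.20) encodes a lactate exporter and Hif1a (1.21 ± 0.11) a factor that induces such genes under low oxygen. Mif (1.74 ± 0.07), Cstb (1.81 ± 0.05), Id2 (1.87 ± 0.17), Mt1 (1.68 ± 0.14) and Pdcd1 (1.37 ± 0.52, from 36 UMIs) were also higher. Against control cluster 4, Cstb (-1.17 ± 0.47), Id2 (-1.15 ± 0.60), Pkm (-1.06 ± 0.27) and Pgk1 (-1.05 ± 0.18) were lower by the same rule, and no gene of this paragraph was higher. No list of such genes was made, so no count over a pathway is given.

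The genes with the largest ratios below 0 were of moderate abundance. Thrsp, a regulator of fatty acid synthesis, was at 60.6, 0 and 55.8 CPM in cluster 10 and at 132, 131 and 146 CPM in cluster 9 (-1.65 ± 1.10). Ms4a6b was at 24.2, 37.5 and 30.5 CPM in cluster 10 and at 113, 133 and 138 CPM in cluster 9 (-1.55 ± 0.12), without overlap. Tnfrsf13b, a receptor for the B cell factors BAFF and APRIL, was at -1.51 ± 0.69, the leukotriene receptor gene Cysltr1 at -1.48 ± 0.58, the calpain gene Capn3, which overlaps Ganc, at -1.44 ± 0.52, Cmtm7 at -1.44 ± 0.56 and the transcription factor gene Klf7 at -1.42 ± 1.47. Thrsp and Klf7 had 0 UMIs in control b, where 1 UMI is worth 18.8 CPM, and without that library Thrsp was at -1.02 and Klf7 at -0.59, which no longer meets the rule of size.

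Markers of other cell types were at 0 UMIs for several lists and present for others. All 7 measured T cell, 6 NK cell and 7 pericyte and smooth muscle markers had 0 UMIs, as had 10 of 12 monocyte markers (1 UMI each of Ccr2 and S100a4), 9 of 10 markers of border-associated macrophages (Mrc1, Lyve1 and Pf4 among them), 9 of 10 neutrophil and 7 of 11 dendritic cell markers. The exceptions that passed the filter, Stab1, Csf3r, Fscn1 and Batf3, were also present in cluster 9, with log2 ratios of -0.70 to -0.06. The other dendritic cell markers with UMIs were under the filter. Summed levels were 194, 507 and 142 CPM in cluster 10 against 219.6, 407 and 188 CPM in cluster 9 for the neutrophil list, of which Csf3r was the member with UMIs in cluster 10, and 279, 206 and 203 CPM against 517, 238 and 407 CPM for the dendritic cell list. Of 8 astrocyte markers 3 had 0 UMIs, and the list summed to 66.7, 188 and 122 CPM in cluster 10 and 114, 149 and 135 CPM in cluster 9, mostly from Slc1a3 with 41 UMIs. The summed level of the oligodendrocyte list was 230.3, 75.1 and 188 CPM in cluster 10 and 235, 175 and 174 CPM in cluster 9. P2ry12 and Tmem119, which mark microglia, were present at 1386 ± 170.4 and 898 ± 169 CPM in cluster 10. The part that other cells or free RNA play was not tested.

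Cluster 4 of the control libraries, with 14, 15 and 40 cells, also carried chemokine UMIs and made up 1.12% of control microglia. Against it, of 3181 genes that passed the same filter, 115 were higher (3.62%) and 39 were lower (1.23%) in cluster 10, 4.84% together, with a median log2 ratio of 0.18 over all genes. Of the 82 genes higher than in cluster 9, 1 was also higher than in cluster 4, 13 were lower and 68 were neither. The 1 gene was S1pr1, at 133, 206 and 122 CPM in cluster 10 against 44.9, 71.9 and 46.2 CPM in cluster 4 (1.21 ± 0.10). With TMM scaling, which allows for a few very abundant genes, 153 genes passed, 69 of them among the 154. S1pr1 then fell under the rule of size. Of the 54 genes lower than in cluster 9, 1 was higher than in cluster 4, P2ry12, and 53 were neither. Both comparisons share the cluster 10 cells. Here too some genes passed the filter through 1 cluster only, and for these the filter and the direction are tied.

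The namesake chemokines were higher in control cluster 4 than in cluster 10. Ccl4 was at 1443, 1989 and 1086 CPM in cluster 10 and at 4506, 3515 and 4061 CPM in cluster 4, a log2 ratio of -1.44 ± 0.56. Ccl3 was at 382, 1557 and 447 CPM in cluster 10 and at 1989, 3937 and 1844 CPM in cluster 4 (-1.88 ± 0.51). At least 10 UMIs of Ccl4 were found in 10 of 89 cluster 10 cells and 21 of 69 cluster 4 cells. Without the top 3 cells of each library, Ccl4 was at 173 ± 124 CPM in cluster 10 and 1362 ± 452 CPM in cluster 4.

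Disease-associated genes split the clusters further. Spp1 was at 138 ± 126 CPM in cluster 10 and 4953 ± 2289 CPM in cluster 4 (-5.14 ± 0.69), Apoe at 743 ± 231 and 17148 ± 9271 CPM (-4.33 ± 1.02), and Lgals3 at 140 ± 66.8 and 1051 ± 710 CPM (-2.61 ± 0.37). Fabp5 (-3.01 ± 1.81), a carrier of fatty acids, Cst7 (-2.02 ± 0.78), Itgax (-1.22 ± 0.60) and Lpl (-1.31 ± 1.12) were also lower, and Ch25h, which makes 25-hydroxycholesterol, had 0 UMIs in cluster 10 and 73 in cluster 4. In all, 7 of 19 disease-associated members that passed were lower and 0 were higher, beside 1.23% lower and 3.62% higher of all genes. Of the 7, Fabp5 (9.97 CPM in cluster 10) and Itgax (45.6 CPM) passed the filter through cluster 4. The count thus describes the list and supports nothing further. Clec7a (-0.42 ± 0.25), Cd63 (-0.35 ± 0.27), Ctsb (-0.33 ± 0.13), Ank (-0.35 ± 0.23) and Cd9 (-0.04 ± 0.03) stayed within 2-fold of cluster 4.

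Homeostatic genes ran the other way. Of 15 members that passed, 5 were higher in cluster 10 than in cluster 4 and 0 were lower, beside 3.62% higher and 1.23% lower of all genes. The median log2 ratio of the 15 was 0.58, beside 0.18 over all genes. The 5 were P2ry13 (1.45 ± 0.29), Tmem119 (1.43 ± 0.43), P2ry12 (1.37 ± 0.36), Gpr34 (1.17 ± 0.31) and Cx3cr1 (1.03 ± 0.41). With TMM scaling, Gpr34 and Cx3cr1 fell under the rule of size. P2ry12 was at 1386 ± 170.4 CPM in cluster 10 and 549 ± 225 CPM in cluster 4, beside 3273 ± 677 CPM in cluster 9. Entpd1, the ectoenzyme CD39 that breaks down extracellular ATP, had the largest ratio above 0, at 503 ± 201 CPM in cluster 10 and 141 ± 46.5 CPM in cluster 4 (1.68 ± 0.49). By their means, cluster 10 lay between clusters 9 and 4 for P2ry12, Tmem119, Apoe, Spp1, Lgals3, Ccl4 and Ccl3. It lay above both for S1pr1, Cadm1 and Cd83. Of the other markers, Nes was at 69.2 ± 28.2 CPM in cluster 10 and 140.3 ± 47.1 CPM in cluster 4 (-0.85 ± 0.83). Il4i1 was at 122 ± 35.9 and 137 ± 89.03 CPM (-0.04 ± 1.15). So of the 6 markers 1, S1pr1, was higher than in cluster 4 by the rule of size, and with TMM scaling it fell under that rule.

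Cluster 4 made up 38.7% of chronic resident microglia, and these cells were set beside cluster 10 as well, although different libraries are then compared. In the 3 chronic resident libraries its Ccl4 level was 1436 ± 535 CPM and its Ccl3 level 426 ± 171 CPM, against 1506 ± 455 and 795 ± 661 CPM in cluster 10. Of 2965 genes that passed the filter, 491 were higher (16.6%) and 127 lower (4.28%) in control cluster 10 by at least 2-fold with no overlap between the libraries. Spp1 was at 138 ± 126 CPM in cluster 10 against 9693 ± 2979 CPM in chronic cluster 4, Apoe at 743 ± 231 against 41409 ± 14720 CPM, Cd74 at 262 ± 163 against 17235 ± 12142 CPM and Gpnmb at 0 against 673 ± 208 CPM. P2ry12 was at 1386 ± 170.4 CPM in cluster 10 against 201 ± 4.15 CPM, Cadm1 at 418 ± 174 against 57.7 ± 12.8 CPM, S1pr1 at 154 ± 45.9 against 22.2 ± 10.7 CPM and Cd83 at 688 ± 152 against 242 ± 38.8 CPM.

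With no cluster 10 cell in EAE, the condition could not be compared within the cluster. The genes of cluster 10 were therefore followed in the remaining annotated microglia of the resident libraries, a comparison chosen after the cell counts were seen, with edgeR's quasi-likelihood test on UMIs summed per library and Benjamini-Hochberg adjusted p over 11071 genes. At the peak 1784 genes rose (16.1%) and 1576 fell (14.2%), and in the chronic phase 1679 rose (15.2%) and 1490 fell (13.5%). In sums over cells, fewer cells of a kind and less RNA per cell cannot be told apart. Both contrasts share the control libraries with each other and with the cluster comparisons, so shared directions are not independent. Peak libraries were deeper, with medians of 8614 and 8648 UMIs per cell against 3020 to 4477 in controls, and the part of depth was not tested.

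In chronic EAE all 12 of the most raised cluster 10 genes were higher in the other microglia. Clec7a was at 573, 734 and 492 CPM in chronic and 47.2, 66.6 and 49.7 CPM in control libraries, a log2 fold change of 3.46 ± 0.27 (SE, adjusted p = 2.66e-06). Ccl4 was at 1838, 840 and 614 CPM against 65.8, 69.9 and 106 CPM (3.76 ± 0.47, adjusted p = 9.6e-05), Ccl3 at 283 ± 60.6 against 61.6 ± 30.7 CPM (2.20 ± 0.37, adjusted p = 9.93e-04) and Spp1 at 5712 ± 702 against 94.1 ± 52.2 CPM (5.92 ± 0.64). No chronic library overlapped a control library for these 4 genes. Of the 82 genes higher than in cluster 9, 64 rose and 1 fell, with a median log2 fold change of 1.48 beside -0.06 over all genes, and of the 54 lower genes 0 rose and 38 fell. Chronic c and control c shared a pool, with 492 and 49.7 CPM of Clec7a and 614 and 106 CPM of Ccl4. With the pool as a term in the fit, 10 of the 12 genes were called, without Cd83 (adjusted p = 0.083) and Ank (adjusted p = 0.14), and the genes called over the whole table numbered 572 in place of 3169.

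At the peak the same genes split. Of the 12, 5 rose, Clec7a (347 and 225 CPM at the peak against 47.2, 66.6 and 49.7 CPM in controls, 2.39 ± 0.28, adjusted p = 5.34e-05), Lgals3 (3.43 ± 0.37), Cd63 (1.87 ± 0.30), Ccl3 (1.33 ± 0.40, adjusted p = 0.0228) and Plaur (1.11 ± 0.34), and Ank fell (-2.14 ± 0.41, adjusted p = 0.00183). Ccl4 was at 267 and 96.4 CPM at the peak against 65.8, 69.9 and 106 CPM in controls (1.17 ± 0.46, adjusted p = 0.0732), and Lpl at 132 and 33.8 CPM against 68.6, 84.2 and 49.1 CPM (0.30 ± 0.42, adjusted p = 0.63). Peak library a lay above all controls for both genes, while library b lay within their range for Ccl4 and below it for Lpl. The number of the 12 that rose was 9 without peak library b, 3 without peak library a or without control c, and 4 with the cluster 10 cells included. With the pool as a term, which sets the peak against control b alone, Ccl3 had a log2 fold change of 0.69, and without peak a 0.58. The call of Ccl3 was lost without control a or control c (adjusted p = 0.0863 and 0.0822). That of Plaur was lost with the cluster 10 cells included (adjusted p = 0.0525) and without control b, control c, peak a or peak b (adjusted p = 0.0596 to 0.118). Of the 82 genes 44 rose and 8 fell, with a median of 0.78, and of the 54 lower genes 2 rose and 30 fell, with a median of -0.96, beside -0.01 over all genes.

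**Figure D5:**
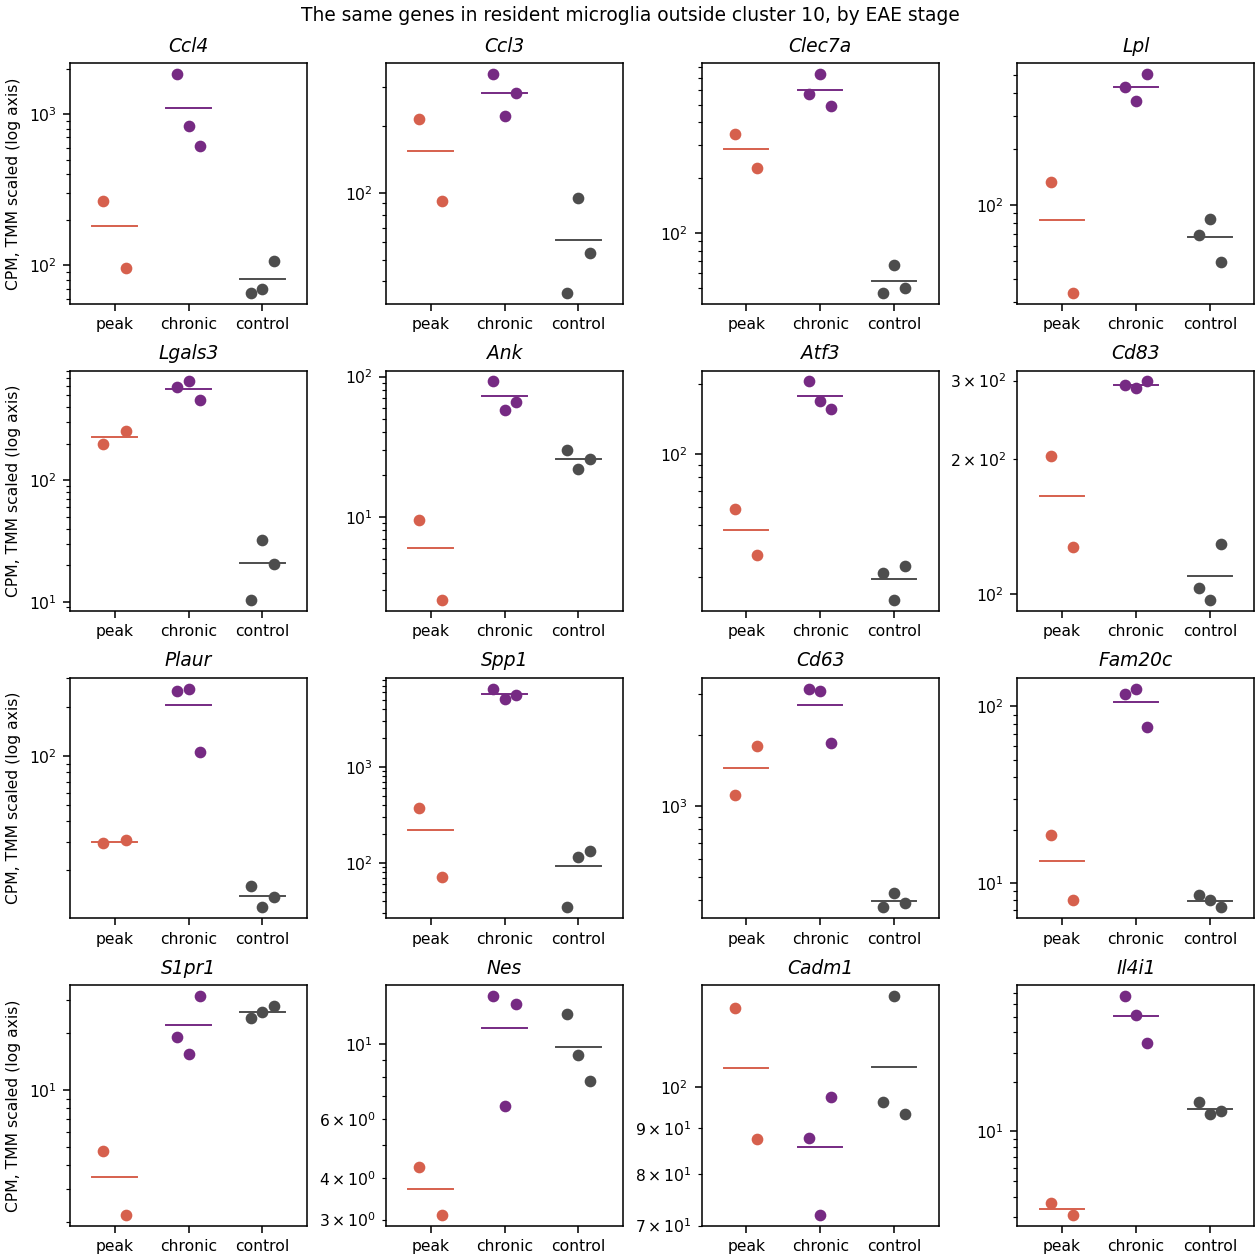
CPM scaled by TMM (log axis) of the same 16 genes in annotated microglia outside cluster 10, summed per resident library, at the peak of EAE (2 libraries), in chronic EAE (3) and in controls (3); lines are means. All chronic libraries lie above all controls for the first 12 genes, and both peak libraries lie below all controls for S1pr1, Nes, Il4i1 and Ank.

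The remaining markers differed among themselves. S1pr1 was at 4.77 and 2.19 CPM at the peak against 23.9, 25.7 and 27.7 CPM in controls, a log2 fold change of -2.92 ± 0.39 (adjusted p = 1.38e-04), and at 18.9, 15.5 and 31.3 CPM in chronic EAE (-0.21 ± 0.27, adjusted p = 0.578). Cadm1 had log2 fold changes of -0.00 ± 0.24 at the peak and -0.29 ± 0.21 in chronic EAE (adjusted p = 0.989 and 0.309). Nes fell at the peak (-1.41 ± 0.39, adjusted p = 0.0159) and had 0.22 ± 0.29 in chronic EAE (adjusted p = 0.596). With the pool as a term, against control b alone, Nes had a log2 fold change of -1.34 at the peak. Il4i1 fell at the peak (-2.03 ± 0.34, adjusted p = 7.39e-04) and rose in chronic EAE (1.88 ± 0.24, adjusted p = 1.21e-04), and Cd83 had 0.59 ± 0.25 at the peak (adjusted p = 0.0874) and rose in chronic EAE (1.42 ± 0.23). In no resident EAE cluster of at least 5 cells did the mean S1pr1 level reach that of cluster 10: the highest was 22.2 ± 10.7 CPM in chronic cluster 4, against 154 ± 45.9 CPM in cluster 10.

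Of the 8 most lowered genes, 5 fell at each stage. With the pool as a term, log2 fold changes were -0.70 for Tnfrsf13b at the peak and -0.70 for Thrsp and -0.62 for Capn3 in chronic EAE. Those values rest on control b alone at the peak, and on chronic c and control c in chronic EAE. Slc2a5 was at 20.9 and 40.5 CPM at the peak and 27.5, 45.1 and 55.5 CPM in chronic EAE, against 227, 209 and 192 CPM in controls (-2.76 ± 0.35 and -2.28 ± 0.29). Thrsp fell by 4.23 and 1.03, Cysltr1 by 1.93 and 1.16 and Klf7 by 1.13 and 2.06 on the log2 scale at the peak and in chronic EAE, each with an adjusted p under 0.05. Tnfrsf13b fell at the peak (-1.05 ± 0.25) and Capn3 in chronic EAE (-0.85 ± 0.18). Ms4a6b and Cmtm7 passed at neither stage, with log2 fold changes of 0.24 ± 0.31 and -0.37 ± 0.28 at the peak and -0.57 ± 0.28 and -0.05 ± 0.25 in chronic EAE.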

How the data were processed

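Spinal cords were mechanically dissociated and cells sorted, per the labels' protocols. The submitters' processing notes name Cell Ranger 3.1.0, R 4.1.3 and builds GRCm38 and mm10, and no annotation. The authors deposited UMI counts per gene and cell (22598 features, 0 mitochondrial genes) and a cell table. It gives library, SLX code (the pool), batch date, class, cluster, doublet mark, mitochondrial percent (at most 5) and the deposited log10 of each cell's UMI total. The batch date entered no fit. Libraries were grouped by that table's condition and sort.

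Counts were summed per library and cluster (at least 5 cells of both) and scaled to CPM. EAE contrasts used edgeR 4.0.16 in R 4.3.3 (filterByExpr, TMM, quasi-likelihood F test, 5 residual degrees of freedom, biological coefficient of variation 21.5%, adjusted p under 0.05, standard errors from F), with DESeq2 1.42.0 as an alternative. Scripts were tested on simulated data. RefSeq gave sequences and GENCODE coordinates. The genes named are the markers, the 12 higher and 8 lower with the largest ratios and at least 20 UMIs observed or expected, and the most abundant 4 of a list, without ribosomal or predicted genes; further list members were picked after their values were seen. Members, lists and rules were chosen with earlier results of these data known. Some list members are counted but not reported by name here.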

Additional observations from a re-analysis of the deposited data

How the results depend on the processing

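Against cluster 9, 136 genes passed the rule of size; 215 did with a pseudocount of 5 CPM, 32 with 100 CPM and 225 with no filter on low values, and 101 to 198 with a library left out. Against cluster 4, 154 genes passed; 271, 21 and 308 did under the same settings, 199 to 276 with a library left out (276 without control a, 270 without control c) and 618 against cluster 4 of chronic EAE. With TMM scaling 145 genes passed against cluster 9, 112 of them among the 136. Against cluster 4, 153 passed with TMM scaling, 69 of them among the 154. The mitochondrial difference ran from 0.331 to 0.916 percentage points with a library left out. Genes called over microglia outside cluster 10 numbered 3360 at the peak and 3169 in chronic EAE. With a library left out they numbered 1895 to 4148 and 1750 to 4920; those that moved the count by over 1.5 times were peak a and b at the peak, and chronic a, b and c and control b in chronic EAE. With the pool as a term 572 were called in chronic EAE. Some log2 fold changes of single genes turned round. At the peak, Cadm1 was at 0.0051 with RLE factors, 0.00504526 with DESeq2 and -0.28 to 0.22 with a library left out, Lpl at -0.0290772 with the pool and -1.001 to 0.97 with a library left out, Spp1 at -0.41 to 1.99 and Ms4a6b at -0.63 to 0.77. In chronic EAE, S1pr1 was at 0.18 and Cadm1 at 0.0623248 with the pool, and Cmtm7 at -0.23 to 0.16 with a library left out. The cause was not tested. A fit within cluster 10 was not run, for want of EAE cells. Control b held 10 cluster 10 cells, which limits genes under about 20 CPM there. No paired analysis was possible because the deposited cell table carries no replicate numbers of the labels; this concerns EAE against control, while clusters were paired by library.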
